A study of Homo sapiens with 32 samples.

Results

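Expression of 8 genes of the B lymphocyte lineage was followed in acute myeloid leukaemia cells given inhibitors of the histone demethylase KDM1A: PAX5, EBF1, POU2AF1, IGLL1, CD79A, CD79B, CD22 and FCRLA. They were chosen by name, and the 8 are among 23073 genes of the deposited expression table. RNA was sequenced from 32 libraries of Kasumi-1 and SKNO-1, established myeloid leukaemia lines that carry the t(8;21) fusion of RUNX1 with RUNX1T1. In each line, at 24 h and at 72 h by the sample titles, the libraries were 2 biological replicates each of DMSO, RN-1 (described as an irreversible KDM1A inhibitor), GSK690 (a reversible inhibitor) and GSK690* (its isomer, described as inactive). RPMI medium was used for all groups, with 20% FCS for Kasumi-1, and with 10% FCS and 10 ng/mL of the cytokine GM-CSF for SKNO-1. DMSO was given at 0.1%, RN-1 and GSK690 at 1 µM and, by the titles, GSK690* at 1 µM, and the treatment protocol names 72 h for Kasumi-1 but 4 days for SKNO-1. Each line stands for 1 patient's leukaemia, and the replicates are cultures of it. In what follows a set is 1 line at 1 time, its controls are the 4 DMSO and GSK690* libraries, and its inhibitor libraries are the 4 RN-1 and GSK690 libraries.

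B cell identity is set up by a small circuit of transcription factors. EBF1 and PAX5 commit a precursor to the lineage and switch on the parts of the B cell receptor, among them the signalling chains CD79A and CD79B and, in precursors, the surrogate light chain component IGLL1. Leukaemias with t(8;21) are known for expressing some B cell genes, PAX5 and CD79A in particular, although they are myeloid. KDM1A removes methyl groups from histone H3 lysine 4 and acts with repressors such as GFI1.

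The promoters of IGLL1 and FCRLA are shown because these genes gave the clearest fall and the clearest rise. Of the 8 genes, 6 matched a promoter entry in RefSeq (GRCh38.p14), and the 250 bases before each start were searched on both strands for TGTGGT (RUNX), CCCNNGGG (EBF), AAATCA (GFI1 core), ATGCAAAT (octamer) and GAGGAA (PU.1). Capitals mark the matches, and each sequence reads 5′ to 3′ toward the gene.
IGLL1, minus strand, chr22:23580291-23580540: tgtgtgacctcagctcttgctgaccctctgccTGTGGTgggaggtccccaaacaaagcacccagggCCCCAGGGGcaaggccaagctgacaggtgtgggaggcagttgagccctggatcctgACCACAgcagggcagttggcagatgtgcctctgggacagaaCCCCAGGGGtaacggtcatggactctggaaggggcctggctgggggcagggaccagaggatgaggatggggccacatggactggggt
FCRLA, plus strand, chr1:161706979-161707228: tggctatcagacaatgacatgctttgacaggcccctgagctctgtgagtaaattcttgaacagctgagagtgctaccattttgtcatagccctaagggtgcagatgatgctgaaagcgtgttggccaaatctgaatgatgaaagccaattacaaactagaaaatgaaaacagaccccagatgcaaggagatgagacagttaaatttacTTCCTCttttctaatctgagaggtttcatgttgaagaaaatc
The IGLL1 window held the RUNX letters at 2 places, 1 on each strand. It also held the EBF letters at 2 places, each a pair of overlapping matches inside CCCCAGGGG. The FCRLA window held only the PU.1 letters, on the opposite strand, 42 to 37 bases before the start (positions -42 to -37). Among 27305 promoters of the same length, 10.9% held TGTGGT, 16.6% held CCCNNGGG, 1.32% held both and 23.4% held GAGGAA. CD79A had 1 RUNX match, PAX5 had 1 PU.1 match, and CD22 and EBF1 had none of the 5 motifs. A match is only a match of letters, and binding was not measured.

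The libraries kept a myeloid profile. MPO, the granule enzyme myeloperoxidase, ranged from 1220 to 6610 FPKM (fragments scaled by transcript length and library size) over the 32 libraries, and RUNX1T1 from 21.2 to 53.5 FPKM. MS4A1, which encodes CD20, was listed at 0 in all 32, and the mature B cell receptors CR2 and FCER2 stayed at or under 0.39 FPKM. Not all markers of mature B cells were absent. CD79B was at 4.49 to 9.37 FPKM in Kasumi-1 and at 34.1 to 61.1 FPKM in SKNO-1. CD79A reached 1 FPKM or more in 30 of the 32 libraries. Summed FPKM per library ranged from 332648 to 395945, and the read depth is unknown. The authors' sample table names the opposite line for the 16 libraries at 72 h. The titles were used, and by expression the 72 h libraries correlated at 0.974 to 0.986 with the 24 h libraries of their titled line against 0.848 to 0.87 with the other. Library names begin with SL at 24 h and with CM or CP at 72 h, so time and library series cannot be told apart in the levels. In bulk RNA, fewer cells expressing a gene and less of its RNA per cell cannot be told apart.

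The transcription factors at the head of the B cell programme were low or listed at 0 and did not pass the filter of 1 FPKM in at least 2 libraries, so 5 of the 8 genes were tested. PAX5 (chr9:36833271-37034103, hg19), the B lineage commitment factor, had a median of 0.516 FPKM and a highest value of 1.31 FPKM. It was at 0.226 to 0.587 FPKM in Kasumi-1 and at 0.428 to 1.31 FPKM in SKNO-1, ranges that overlap over all agents and times. At 24 h the Kasumi-1 controls had 0.288 to 0.463 FPKM and the SKNO-1 controls 0.514 to 0.987 FPKM. At 72 h the controls had 0.292 to 0.519 FPKM in Kasumi-1 and 0.75 to 1.31 FPKM in SKNO-1, so at each time they were apart. How many of all genes were apart in that way was not computed. In SKNO-1 at 72 h the control libraries read 0.798, 0.958, 0.75 and 1.31 FPKM and the inhibitor libraries 0.475, 0.89, 0.726 and 0.811 FPKM. Controls and inhibitors overlapped in all 4 sets, and with no filter the limma adjusted p for PAX5 was 0.485, 0.94, 0.415 and 0.384 in Kasumi-1 at 24 h and 72 h and SKNO-1 at 24 h and 72 h. EBF1 (chr5:158122927-158526769), the factor upstream of PAX5, was listed at 0 in 30 of 32 libraries, and its highest value was 0.104 FPKM. POU2AF1 (chr11:111222976-111326355), the B cell coactivator of the octamer factors, was listed at 0 in 20 libraries and reached 0.117 FPKM. EBF1 and POU2AF1 therefore had no level that could be compared between agents.

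**Figure D1:**
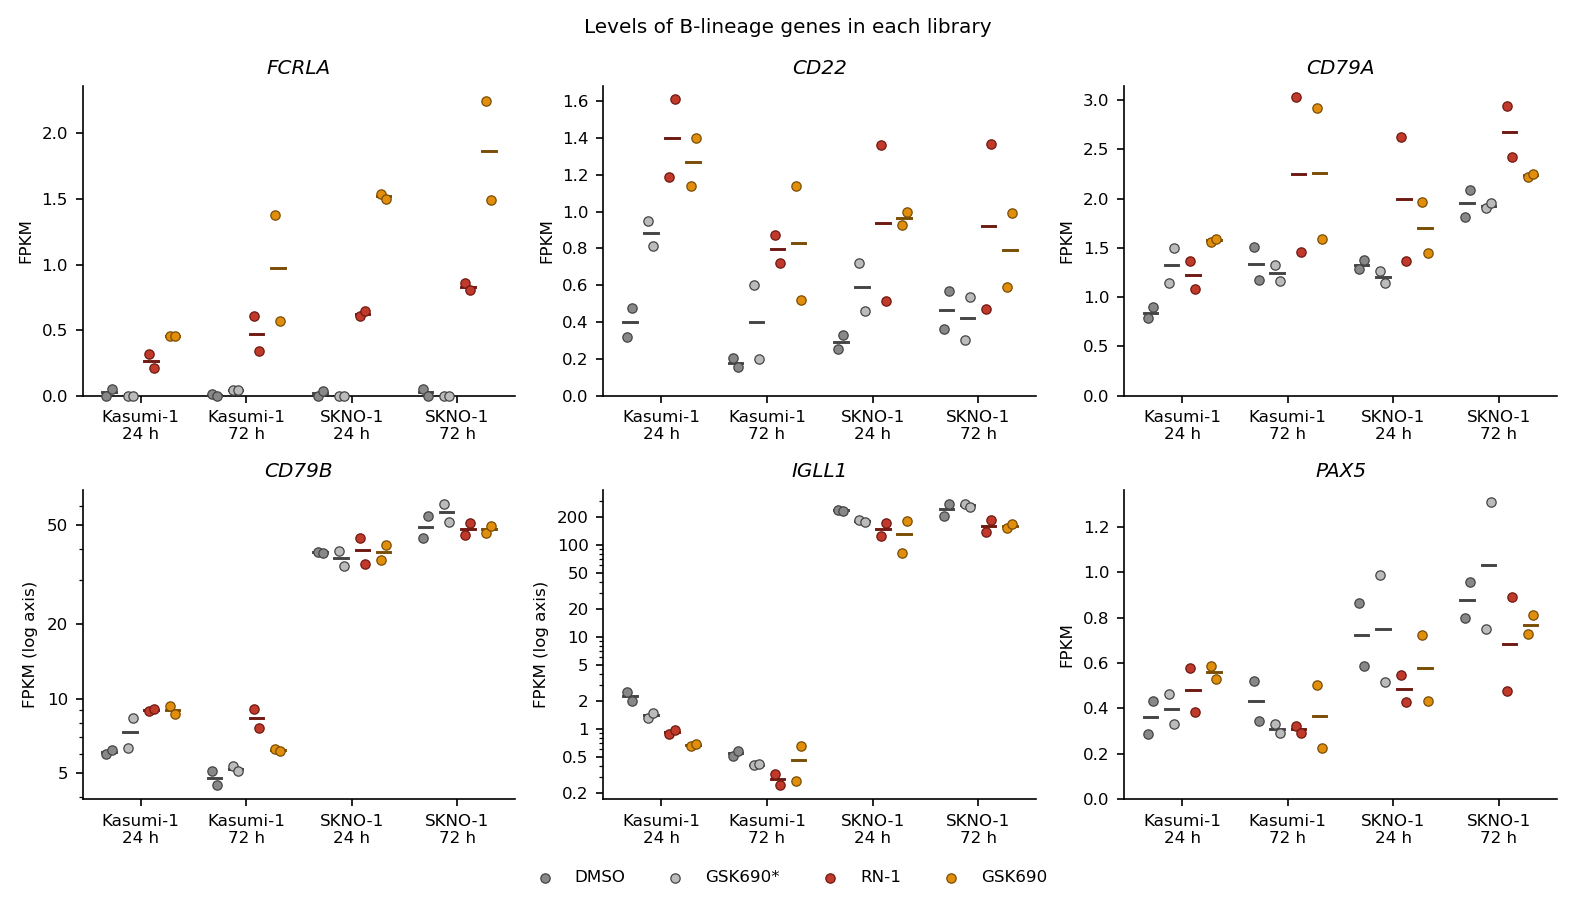
Expression of 6 of the genes in FPKM, by cell line and time, with 1 point for each library, a line at the mean of the 2 replicates and colours for the 4 agents; the axes of CD79B and IGLL1 are logarithmic. FCRLA is near 0 in every DMSO and GSK690* library and above 0.2 FPKM in every RN-1 and GSK690 library, and CD79B and IGLL1 lie far higher in SKNO-1 than in Kasumi-1.

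IGLL1 was the most abundant of the 8 genes in SKNO-1 and was lower with the inhibitors. It encodes lambda5, which pairs with VPREB1 to form the surrogate light chain of the pre-B cell receptor, and lies at chr22:23915311-23922495 (hg19). At 24 h the SKNO-1 libraries read 238 and 236 FPKM in DMSO, 187 and 178 FPKM in GSK690*, 124 and 173 FPKM in RN-1 and 81.8 and 182 FPKM in GSK690. The second GSK690 library lay inside the control range, so controls and inhibitors overlapped. At 72 h the SKNO-1 libraries read 206 and 281 FPKM in DMSO, 276 and 261 FPKM in GSK690*, 137 and 185 FPKM in RN-1 and 154 and 168 FPKM in GSK690. Here every inhibitor library was below every control. In SKNO-1, IGLL1 fell by 0.63 on the log2(FPKM + 1) scale at 24 h (SE 0.17, limma adjusted p = 0.0195) and by 0.66 at 72 h (SE 0.17, adjusted p = 0.0109).

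In Kasumi-1 the same gene was far lower. At 24 h it read 2.51 and 2.04 FPKM in DMSO, 1.33 and 1.5 FPKM in GSK690*, 0.889 and 0.969 FPKM in RN-1 and 0.661 and 0.694 FPKM in GSK690. The 4 agents fell in 4 steps that did not overlap. IGLL1 fell by 0.64 on that scale (SE 0.17, limma adjusted p = 0.00835), from a mean of 1.84 ± 0.535 FPKM (SD, n = 4) to 0.803 ± 0.149 FPKM (SD, n = 4). At 72 h Kasumi-1 had only 0.403 to 0.579 FPKM in controls and 0.247 to 0.648 FPKM with inhibitors, and the difference of -0.11 did not pass the test (adjusted p = 0.664, 95% interval -0.46 to 0.23). The fall in Kasumi-1 did not differ between the times by test (0.53, adjusted p = 0.917).

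The fall of IGLL1 was least secure in SKNO-1 at 24 h. Without the first GSK690 library it was -0.35 with an adjusted p of 0.155, and only the second RN-1 and the second GSK690 library could be left out without ending the call. In a fit to the 8 libraries alone the adjusted p was 0.201. In SKNO-1 at 72 h it was -0.56 without the first RN-1 library (adjusted p = 0.0556), with DMSO alone as control -0.58 (0.0831), and -0.67 in the libraries whose names start with CP alone (0.0508); CM names belong to 1 DMSO and 1 RN-1 library and allow no test.

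FCRLA was near 0 in every control library and higher in every inhibitor library. It encodes an intracellular Fc receptor-like protein of germinal centre B cells and lies at chr1:161676761-161684142 (hg19). The DMSO and GSK690* libraries were listed at 0 in 10 of 16 cases and were highest at 0.0525 FPKM. In Kasumi-1 at 24 h FCRLA read 0.315 and 0.207 FPKM in RN-1 and 0.458 and 0.454 FPKM in GSK690. At 72 h the Kasumi-1 values were 0.606 and 0.337 FPKM in RN-1 and 1.38 and 0.571 FPKM in GSK690. In SKNO-1 the RN-1 libraries read 0.606 and 0.643 FPKM at 24 h and 0.858 and 0.805 FPKM at 72 h, and the GSK690 libraries 1.54 and 1.5 FPKM and then 2.25 and 1.49 FPKM. The lowest inhibitor library of either line thus lay above the highest control.

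On the log2(FPKM + 1) scale, which understates the change of so low a gene, FCRLA rose by 0.42 (SE 0.10, limma adjusted p = 0.00514) in Kasumi-1 at 24 h and by 0.72 (SE 0.10, adjusted p = 1.99e-05) at 72 h. In SKNO-1 it rose by 1.00 (SE 0.10, adjusted p = 5.59e-07) at 24 h and by 1.17 (SE 0.10, adjusted p = 4.42e-08) at 72 h. No fold is given, since controls were at or near 0. These calls held under every alternative run, each left-out library included, and in the CP libraries alone the rise in SKNO-1 at 72 h was 1.18. Only 5 of the 32 libraries reached 1 FPKM, all of them GSK690 libraries. FCRLA therefore passed the filter through the inhibitor libraries alone and was bound to differ among the genes tested.

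The receptor chain CD79B rose in Kasumi-1, where it was low, and did not pass the test in SKNO-1, where it was high. CD79B (chr17:62006099-62009714) and its partner CD79A carry the signal of the B cell receptor. In Kasumi-1 at 24 h CD79B read 5.99 and 6.19 FPKM in DMSO, 6.33 and 8.37 FPKM in GSK690*, 8.89 and 9.09 FPKM in RN-1 and 9.37 and 8.67 FPKM in GSK690. At 72 h it read 5.09 and 4.49, then 5.33 and 5.1, then 9.05 and 7.6, then 6.28 and 6.18 FPKM for the same agents in that order. The inhibitor libraries were above all controls at both times. The rise was 0.38 on the log2(FPKM + 1) scale at 24 h (SE 0.09, limma adjusted p = 0.00553) and 0.45 at 72 h (SE 0.09, adjusted p = 0.00115), or 1.34 and 1.46 times by the means. In SKNO-1 the libraries spanned 34.1 to 61.1 FPKM, with differences of 0.05 at 24 h (95% interval -0.14 to 0.24, adjusted p = 0.806) and -0.12 at 72 h (-0.32 to 0.07, adjusted p = 0.429).

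CD79A (chr19:42381189-42385439), the other signalling chain, was far lower than CD79B in both lines, at 0.789 to 3.03 FPKM in Kasumi-1 and 1.14 to 2.94 FPKM in SKNO-1. In Kasumi-1 at 72 h it read 1.51 and 1.17 FPKM in DMSO, 1.32 and 1.16 FPKM in GSK690*, 3.03 and 1.46 FPKM in RN-1 and 2.92 and 1.59 FPKM in GSK690. The first replicate of each inhibitor stood out and the second lay at the edge of the control range. The rise of 0.47 passed the test (SE 0.15, limma adjusted p = 0.0200). It did not without the first RN-1 library (0.29, adjusted p = 0.134) or without the first GSK690 library (0.32, adjusted p = 0.133). Leaving out the second DMSO or the second GSK690* library also ended the call (adjusted p = 0.0692 and 0.0613), as did quantile normalization, either fit to the set alone and DMSO alone as control (adjusted p up to 0.104). In the other sets CD79A differed by 0.21, 0.31 and 0.23, short of the threshold (adjusted p = 0.324, 0.193 and 0.327), although in SKNO-1 at 72 h the inhibitor libraries (2.22 to 2.94 FPKM) were all above the controls (1.81 to 2.09 FPKM).

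CD22 (chr19:35810163-35838258), the sialic acid-binding inhibitory coreceptor of B cells, was higher with the inhibitors in Kasumi-1. At 24 h its libraries read 0.319 and 0.478 FPKM in DMSO, 0.951 and 0.815 FPKM in GSK690*, 1.19 and 1.61 FPKM in RN-1 and 1.14 and 1.4 FPKM in GSK690. At 72 h the controls read 0.206, 0.153, 0.601 and 0.199 FPKM and the inhibitor libraries 0.874, 0.723, 1.14 and 0.519 FPKM. The groups were apart at 24 h and overlapped at 72 h through 1 GSK690* library. The rise was 0.52 (SE 0.15, limma adjusted p = 0.0185) and 0.49 (SE 0.15, adjusted p = 0.0209). The 24 h call was lost without the first DMSO library or without the second RN-1, GSK690* or GSK690 library (adjusted p up to 0.0848). The 72 h call was lost without either DMSO library, the first RN-1, the first GSK690 or the second GSK690* library (up to 0.118) and under quantile normalization (0.0575). In SKNO-1 CD22 had controls at 0.251 to 0.723 FPKM and inhibitor libraries at 0.469 to 1.37 FPKM over both times, and differed by 0.43 and 0.34, short of the threshold (limma adjusted p = 0.0854 and 0.155). It passed in SKNO-1 without the second RN-1 library at 24 h (0.59, adjusted p = 0.0169) and without the first RN-1 library at 72 h (0.52, adjusted p = 0.035). With the replicate number as a block CD22 passed there at both times (limma adjusted p = 0.0119 and 0.0346), although no label says that a number pairs the cultures. All 8 libraries with 1 FPKM or more of CD22 were inhibitor libraries, so CD22, like FCRLA, passed the filter only through the group in which it was high.

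**Figure D2:**
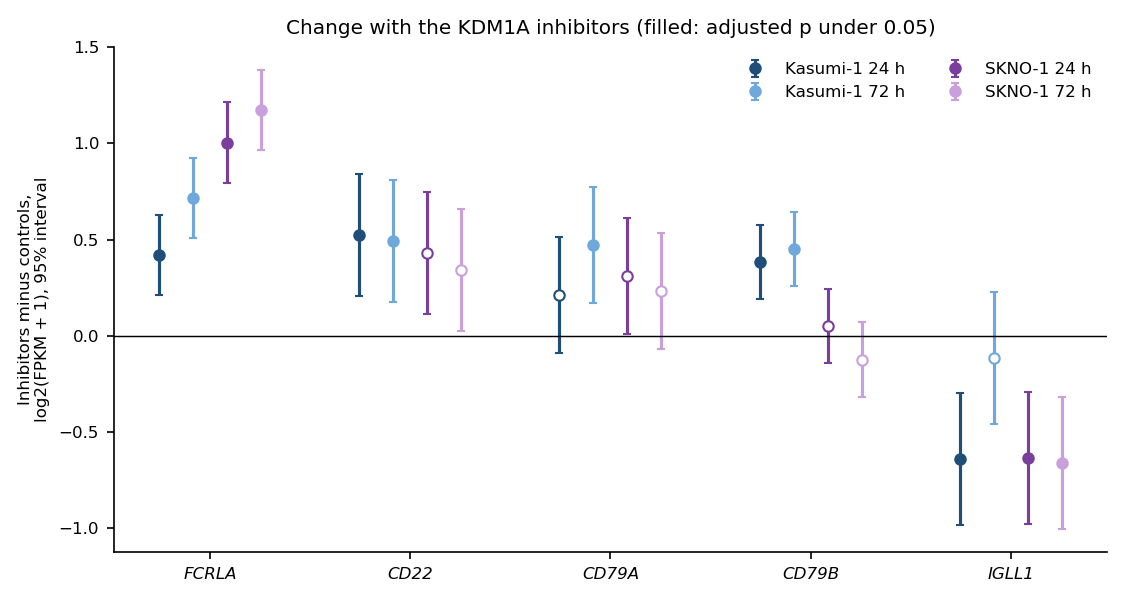
Difference between the inhibitor and control libraries of each set on the log2(FPKM + 1) scale, with 95% intervals, for the 5 genes that passed the filter; filled points passed the limma test at an adjusted p under 0.05. FCRLA is above 0 in all 4 sets, from 0.42 to 1.17, and IGLL1 lies near -0.65 in 3 sets.

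By set, 4 of the 5 tested genes passed in Kasumi-1 at 24 h (FCRLA, CD22 and CD79B higher, IGLL1 lower), where 20.9% of all genes tested did, 9.69% higher and 11.2% lower. Another 4 passed at 72 h, all higher, where 25.7% of all genes did (13.0% higher, 12.7% lower). In SKNO-1 FCRLA and IGLL1 passed at both times, FCRLA higher and IGLL1 lower, against 9.08% of all genes at 24 h (5.64% higher, 3.44% lower) and 11.1% at 72 h (6.91% higher, 4.16% lower). FCRLA and CD22 came through the filter by their inhibitor libraries alone, so these counts cannot be read against the shares of all genes. The groups did not overlap for FCRLA in all 4 sets, for CD79B and CD22 in Kasumi-1 at 24 h, for CD79B in Kasumi-1 at 72 h, for CD79A in SKNO-1 at 72 h and, with inhibitors lower, for IGLL1 in Kasumi-1 at 24 h and SKNO-1 at 72 h. Of all genes 32.6%, 28.7%, 15.2% and 15.2% did not overlap in the 4 sets.

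Some markers of other cell types moved with the inhibitors, and others did not. The summed level of 4 monocyte markers (CD14, FCGR3A, CSF1R and VCAN) was 1.36 to 2.46 FPKM in controls and 6.01 to 7.25 FPKM with inhibitors in Kasumi-1 at 24 h, and 3.44 to 3.61 against 8.96 to 12.9 FPKM at 72 h. In SKNO-1 it was 0.245 to 0.47 against 0.882 to 1.27 FPKM at 24 h and 0.59 to 1.0 against 0.986 to 1.84 FPKM at 72 h. The SKNO-1 sums are low, and those at 72 h overlapped. CSF1R made up most of it in Kasumi-1, and CD14 and FCGR3A never passed 0.262 FPKM. CSF1R alone of these markers passed the filter. It rose by 1.43 and 1.36 in Kasumi-1 and did not pass the test in SKNO-1 (0.254 and 0.321). The sum of 4 plasma cell markers overlapped between controls and inhibitors in every set. The sum of 6 T and NK cell markers was 1.91 to 2.58 against 2.7 to 3.64 FPKM in Kasumi-1 at 24 h and 1.61 to 2.98 against 3.84 to 4.76 FPKM at 72 h, and overlapped at 24 h in SKNO-1 (0.852 to 1.14 against 0.844 to 1.74) and at 72 h (0.476 to 1.19 against 1.18 to 1.96). NKG7 and CD8A rose in Kasumi-1 at 72 h (0.98 and 0.41) and CD8A in SKNO-1 at 72 h (0.37), while the T cell receptor chains CD3D, CD3E and CD3G stayed at or under 0.472 FPKM. Among the blast markers CD34 rose in every set (0.73, 1.41, 1.02 and 1.53). Its control means were 76.5 and 83.9 FPKM in Kasumi-1 but 0.172 and 0.477 FPKM in SKNO-1. With inhibitors the SKNO-1 means were 1.49 and 3.41 FPKM. KIT fell in Kasumi-1 at both times and in SKNO-1 at 24 h (-0.38, -0.52 and -0.36). The part of these genes in the changes of the B cell genes was not tested.

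The lines differed in how much of these genes they held before any inhibitor. In the controls CD79B was lower in Kasumi-1 than in SKNO-1 by log2 differences of -2.34 at 24 h and -3.16 at 72 h (limma adjusted p = 1.29e-15 and 4.68e-18), and IGLL1 by -6.22 and -7.43 (adjusted p = 8.82e-19 and 3.09e-20). CD79A was lower in Kasumi-1 at 72 h (-0.36, adjusted p = 0.0307) and did not pass at 24 h (-0.13, adjusted p = 0.424), and CD22 passed at neither time (0.18 and -0.17). The 72 h call of CD79A was lost without any 1 of 5 control libraries (adjusted p up to 0.103). PAX5, which did not pass the filter, had every Kasumi-1 control below every SKNO-1 control at each time. The share of all genes apart in that way between the lines was not computed. Of all genes tested, 69.1% at 24 h and 70.8% at 72 h differed between the lines. The effect of the inhibitors itself differed by line for FCRLA at 24 h, smaller in Kasumi-1 by -0.58 (adjusted p = 0.0471), and for CD79B at 72 h, larger in Kasumi-1 by 0.58 (adjusted p = 0.0130), where 1.12% and 3.47% of all genes differed. The FCRLA call was lost when any 1 of the 16 libraries at 24 h was left out (adjusted p 0.0609 to 0.125). At 24 h FCRLA reached 1 FPKM only in SKNO-1 libraries with GSK690, so the filter itself favoured a larger rise in SKNO-1. Its call cannot be read against the share of all genes. At the other time the differences were -0.46 for FCRLA at 72 h (adjusted p = 0.0881) and 0.33 for CD79B at 24 h (adjusted p = 0.328). For no tested gene did the effect differ between 24 h and 72 h by test in either line, where 0.202% of all genes did in Kasumi-1 and 0.0% in SKNO-1 (0 called by limma, 153 at an unadjusted p under 0.05).

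The agents were compared in pairs at the same line and time, 3 pairs in each of 4 sets. GSK690 against its isomer GSK690* gave a higher FCRLA in every set, by 0.54, 0.89, 1.33 and 1.51 on the log2 scale in Kasumi-1 at 24 h and 72 h and SKNO-1 at 24 h and 72 h (SE 0.14, limma adjusted p = 0.0339, 0.000252, 4.21e-06 and 5.26e-07), while 2.52%, 6.02%, 1.52% and 2.53% of all genes were higher (3.94%, 9.75%, 1.63% and 2.83% in either direction). FCRLA passed the filter through GSK690 libraries alone, which favours this contrast, so its calls cannot be read against these shares. The call in Kasumi-1 at 24 h was lost without any 1 of its 4 libraries (adjusted p 0.111 to 0.213). None of the other 4 tested genes passed between these isomers in any set, with 95% intervals that reached from -1.22 to 0.94. CD79A was higher in both GSK690 libraries than in both GSK690* libraries in all 4 sets, CD22 in 3 sets and CD79B in Kasumi-1 at both times. Of all genes 24.5%, 27.5%, 20.1% and 17.8% were higher in that way in the 4 sets. The other way, CD79B was lower in both GSK690 libraries in SKNO-1 at 72 h, and IGLL1 in Kasumi-1 at 24 h and SKNO-1 at 72 h. The share of all genes lower in that way was not computed.

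RN-1 and GSK690 could not be told apart by test for any of the 5 genes. Over the 20 comparisons the differences ran from -0.64 to 0.36, with 95% intervals from -0.93 to 0.74, so differences of that size are not excluded by these data. Every library in which FCRLA reached 1 FPKM was a GSK690 library, so the filter itself favoured a lower FCRLA with RN-1. Its order and p-values here therefore cannot be read against those of all genes. FCRLA was lower in both RN-1 libraries than in both GSK690 libraries in 3 of the 4 sets. Of all genes 10.8%, 11.6%, 19.8% and 7.93% were lower in that way in the 4 sets. The limma differences of FCRLA were -0.21 and -0.40 in Kasumi-1 at 24 h and 72 h, and -0.63 and -0.64 in SKNO-1 at 24 h and 72 h (unadjusted p = 0.156, 0.0104, 0.000213 and 0.000206). CD79B in Kasumi-1 at 72 h was higher with RN-1 by 0.36 (limma, unadjusted p = 0.0117). After adjustment over all genes none of these passed (adjusted p from 0.676 to 1), and 0.0%, 0.00841%, 0.0% and 0.0% of all genes did in the 4 sets.

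GSK690* and DMSO also gave no call by limma for any of the 5 genes or any other gene, 0.0% in each set, with 111 to 305 genes at an unadjusted p under 0.05. Both GSK690* libraries were below both DMSO libraries for IGLL1 in Kasumi-1 at 24 h and 72 h and in SKNO-1 at 24 h, and above them for CD22 in Kasumi-1 and SKNO-1 at 24 h and for CD79B in Kasumi-1 at both times. Of all genes 15.9%, 12.9%, 17.2% and 10.1% were below in that way in the 4 sets, and 19.1%, 9.46%, 14.8% and 7.94% above. In Kasumi-1 at 24 h the GSK690* difference from DMSO was -0.44 for IGLL1 (95% interval -0.92 to 0.05) and 0.43 for CD22 (-0.02 to 0.88), unadjusted p = 0.0765 and 0.0591.

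The wider B cell programme was read from 5 lists of 109 genes, of which 71 passed the filter. In Kasumi-1 at 24 h 14 of the 71 rose and 5 fell (19.7% and 7.04%), and at 72 h 17 rose and 6 fell (23.9% and 8.45%). In SKNO-1 10 rose and 3 fell at 24 h (14.1% and 4.23%), and 13 rose and 4 fell at 72 h (18.3% and 5.63%). These shares stand beside 9.69%, 13.0%, 5.64% and 6.91% higher over all genes, and 11.2%, 12.7%, 3.44% and 4.16% lower. The lists were chosen with earlier results of these data known, so the shares are a description only.

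Among 20 tested transcription factors of the lineage 5 rose in Kasumi-1 at 24 h, and 6 rose and 1 fell at 72 h. In SKNO-1 4 rose and 1 fell at 24 h, and 6 rose at 72 h. The shares of all genes given above stand beside these small counts. ID3, which blocks the E proteins that B cell commitment needs, had the largest rise of the list in all 4 sets, from 0.71 ± 0.187 to 4.18 ± 0.992 FPKM (SD, n = 4 each) in Kasumi-1 at 24 h and from 2.09 ± 0.911 to 14.0 ± 1.93 FPKM in SKNO-1 at 72 h. ID2, of the same family, rose by 0.85 and 0.80 in SKNO-1 at 24 h and 72 h. POU2F2, the octamer factor that POU2AF1 assists, rose at 72 h in Kasumi-1 (0.74, limma adjusted p = 0.00285) and in SKNO-1 (0.65, adjusted p = 0.0146). In Kasumi-1 IRF8 (0.43 and 0.83) and BCL6 (0.44 and 0.585) rose at 24 h and 72 h, and MEF2C at 24 h (0.44). In SKNO-1 FOXO1 rose at both times (0.34 and 0.43), and ZEB2 fell at 24 h (-0.34). TCF3, the gene of the E proteins E12 and E47, passed in no set (differences of -0.11, -0.18, 0.02 and -0.07).

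Of 16 tested B cell surface genes 3, 4, 3 and 3 rose and 3, 1, 1 and 1 fell in the 4 sets. Of all genes 9.69%, 13.0%, 5.64% and 6.91% rose and 11.2%, 12.7%, 3.44% and 4.16% fell. These shares stand beside the counts of the other lists in this paragraph too. FCGR2B, the inhibitory Fc receptor of B cells, rose in every set, and CD53, a leukocyte tetraspanin, did too (0.82, 1.00, 1.05 and 1.11). CD180, a B cell relative of the Toll-like receptors, fell in every set (-0.97, -1.47, -0.50 and -0.91). CXCR4, a chemokine receptor, rose in every set (0.39, 0.92, 0.64 and 0.79), and CD52 fell in Kasumi-1 at 24 h (-0.67). Of 23 genes of B cell receptor signalling 6, 7, 3 and 4 rose and 0, 4, 1 and 3 fell. The ubiquitin ligase CBLB and the Src kinase FYN rose in every set, CBLB by 0.39, 0.69, 0.54 and 0.68. RASGRP3, a Ras activator, had the largest rise of the list in Kasumi-1 (0.75 and 1.24) and rose in SKNO-1 at 72 h (0.55). PIK3CD fell in Kasumi-1 at 72 h (-0.23) and in SKNO-1 at 24 h (-0.25), and PTPN6 fell in SKNO-1 at 72 h (-0.37). MALT1, a protease that acts in antigen receptor signalling, rose by 0.55, 0.59, 0.32 and 0.33 in the 4 sets. Of 4 tested genes of early recombination and the surrogate light chain none passed in any set. Of 8 plasma cell genes SDC1 and FKBP11 fell in Kasumi-1 at 24 h (-0.60 and -0.38), and no other call was made.

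The factors that are known to act with KDM1A or to set myeloid fate were read beside these. GFI1 rose in every set, from 125 ± 9.58 to 181 ± 7.58 FPKM (SD, n = 4 each) in Kasumi-1 at 24 h and from 112 ± 6.09 to 158 ± 6.42 FPKM in SKNO-1 at 72 h. GFI1B, its close relative, rose in SKNO-1 (2.59 and 3.82). SPI1, which encodes PU.1, was at 41.5 to 79.4 FPKM in Kasumi-1 and 64.1 to 140 FPKM in SKNO-1 and passed in no set. IKZF1, a lymphoid zinc finger factor, passed in no set, although in SKNO-1 at 24 h its inhibitor libraries (24.3 to 27.0 FPKM) were all below its controls (30.1 to 33.9 FPKM).

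Some genes near FCRLA and CD79B in the genome rose in the same sets and others did not. Over all 8 loci 36 tested genes lay within 200 kb, and 6, 8, 4 and 6 of them rose and 3, 4, 0 and 1 fell in the 4 sets (16.7%, 22.2%, 11.1% and 16.7% higher, beside 9.69%, 13.0%, 5.64% and 6.91% of all genes). The shares that fell were 8.33%, 11.1%, 0.0% and 2.78%, beside 11.2%, 12.7%, 3.44% and 4.16% of all genes. The genes named here were chosen after their values were seen. FCGR2B, 28317 bases from FCRLA on its lower-coordinate side, rose from 0.129 to 0.938 FPKM and from 0.11 to 1.37 FPKM in Kasumi-1, and from 0.873 to 23.6 FPKM and from 1.01 to 29.4 FPKM in SKNO-1 (means of 4 libraries, at 24 h and 72 h). The rise of FCGR2B was larger in SKNO-1 than in Kasumi-1 (line difference -2.77 and -2.81, limma adjusted p = 3.97e-05 and 1.56e-05). FCGR2C rose in every set too, but its annotated span overlaps that of FCGR2B and the genes are near copies, so the split of reads between them is uncertain. FCGR2A rose at 72 h in both lines (0.52 and 0.50), and HSPA6 in SKNO-1 (1.25 and 1.28). On the other side DUSP12, 35405 bases away, and ATF6, 51941 bases away, passed in no set, with differences between -0.09 and 0.06.

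ICAM2, an adhesion ligand of leukocytes and endothelium 70239 bases from CD79B, rose in the same sets as CD79B. It read 3.17 to 4.47 FPKM in the controls and 6.86 to 8.32 FPKM in the inhibitor libraries of Kasumi-1 at 24 h, and 3.89 to 5.13 against 11.6 to 16.6 FPKM at 72 h. ICAM2 rose by 0.92 and 1.45 there (limma adjusted p = 1.86e-06 and 9.25e-10) and did not pass in SKNO-1 (0.16 and 0.15), where it stood at 31.5 to 63.0 FPKM. The effect on ICAM2 differed between the lines by 0.76 and 1.30 (adjusted p = 0.00697 and 5.78e-06), and its control level was lower in Kasumi-1 by -2.99 and -3.35, as that of CD79B was. Of the other genes near CD79B, CCDC47 fell in Kasumi-1 at both times (-0.29 and -0.28), FTSJ3 rose there (0.22 and 0.27) and C17orf72 rose there at 72 h (0.32). In SKNO-1, where CD79B did not pass, STRADA rose at both times (0.18 and 0.24) and DDX42 at 72 h (0.20). RGL4, 107827 bases from IGLL1, fell in Kasumi-1 by 0.36 at 24 h and by 0.67 at 72 h and did not pass in SKNO-1, where it was at 0.269 to 0.328 FPKM on average. CHCHD10, also near IGLL1, fell at 72 h in Kasumi-1 (-0.34) and in SKNO-1 (-0.33), while MMP11 rose in Kasumi-1 at 24 h (0.28). RABAC1, 75393 bases from CD79A, rose in Kasumi-1 at 72 h (0.45). FXYD7, 164959 bases from CD22, rose in Kasumi-1 (0.49 and 1.41) and was near 0 in SKNO-1.

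**Figure D3:**
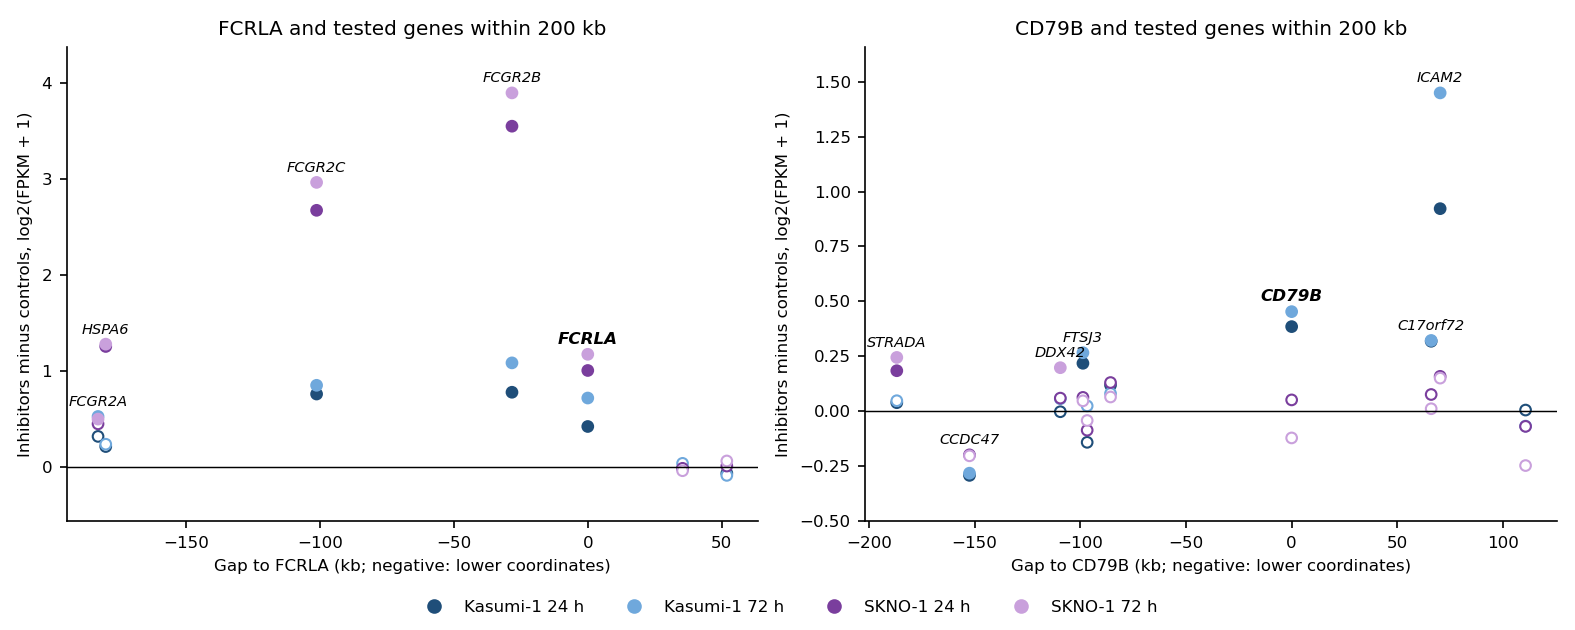
Difference between inhibitor and control libraries on the log2(FPKM + 1) scale against the gap, in kb, from FCRLA (left) and CD79B (right) to each tested gene within 200 kb, with 1 colour for each set and filled points for an adjusted p under 0.05. Near FCRLA the rises lie on the lower-coordinate side, up to 3.90 for FCGR2B, and near CD79B the largest are those of ICAM2 in Kasumi-1, 0.92 and 1.45.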

How the data were processed

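The labels describe total RNA from 32 cultures, 2 biological replicates for each of 16 groups, isolated with Trizol or RNeasy Plus. FPKM values per gene are as the authors deposited them; the submitters' processing notes name TopHat 1.4.1, Cufflinks and hg19, with no further settings. FPKM values hold no read counts, so depth is unknown; low values gave a rough relative depth of 0.697 to 1.62. A gene was tested if 2 or more libraries had 1 FPKM or more, which left 11890 of 23073 genes; log2(FPKM + 1) was fitted with limma 3.58.1 in R 4.3.3 (a mean for each group, all 32 libraries, variance trend), and p-values were adjusted by Benjamini-Hochberg over all genes tested, with a threshold of 0.05. The fit was tested on simulated data. For 30 genes 102 values are missing and were left missing. The fit has 16 residual degrees of freedom, so 2 replicates a group borrow their spread from all groups, and p-values measure the spread between cultures of each line.

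The 8 genes and all lists were chosen with earlier results of these data known. The text names the 8 genes in every comparison, up to 4 genes of each wider list and set with the largest change among those past the threshold, and MS4A1, RUNX1T1, SPI1, IKZF1 and GFI1 whatever their result (1 more gene of that rule is not reported here); MALT1 in SKNO-1 at 72 h, TCF3, the monocyte and T cell markers and the neighbouring genes were added after their values were seen. For each tested gene the 3 genes most alike in pattern were taken by Pearson's r over the 16 group means, centred within each set. Alternatives were another pseudocount, no filter, other scalings, a replicate block, other samples or controls in the fit, a term for library names and each library left out in turn. Promoters are RefSeq sequences of GRCh38.p14; gene positions are those of the deposited annotation. Some B-lineage genes near copies of others (IGLL1 and the lambda constant genes, FCGR2B and FCGR2C) may share reads.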

Additional observations from a re-analysis of the deposited data

Results flagged for a closer look

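The effect of the inhibitors differed between the lines by test for 2 of the genes. For FCRLA at 24 h the rise was smaller in Kasumi-1 than in SKNO-1, with a difference of -0.58 on the log2(FPKM + 1) scale (limma adjusted p = 0.0471), and the inhibitor libraries of SKNO-1 (0.606 to 1.54 FPKM) were all above those of Kasumi-1 (0.207 to 0.458 FPKM). That call was lost with any 1 library at 24 h left out (limma adjusted p 0.0609 to 0.125). Only SKNO-1 libraries reached 1 FPKM of FCRLA at 24 h, so the filter itself favoured this difference. For CD79B at 72 h the rise was larger in Kasumi-1, with a difference of 0.58 (adjusted p = 0.0130), from controls of 4.49 to 5.33 FPKM in Kasumi-1 and of 44.3 to 61.1 FPKM in SKNO-1.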

How the results depend on the processing

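Among the 5 tested genes, FCRLA passed in all 4 sets and CD79B in both Kasumi-1 sets under every alternative and with every library left out. FCRLA came through the filter by its inhibitor libraries alone, which favoured its calls wherever that filter was used. The number of genes that passed moved elsewhere. In Kasumi-1 at 72 h, 4 became 2 under quantile normalization and 2 to 4 with a library left out. In SKNO-1 at 24 h, 2 became 1 with a pseudocount of 0.1, with the 8 libraries alone and with 2 groups of 4, and 1 to 4 with a library left out (4 without the second RN-1 library). In SKNO-1 at 72 h, 2 became 1 with DMSO alone as control and 1 in the CP libraries alone, an alternative chosen after seeing the data. GSK690 against GSK690* in Kasumi-1 at 24 h went from 1 to 0 with any library left out, and in SKNO-1 at 24 h it was 1 to 2. The line difference at 24 h went from 1 to 0 with a pseudocount of 0.1 and to 0 with any library left out; at 72 h it was 1 to 2. The line contrast of the controls at 24 h gave 4 with no filter against 2. CD79B in SKNO-1 at 24 h changed sign with a library left out (-0.0333 to 0.1334). With the replicate number as a block the members passing rose to 2 for GSK690 against GSK690* in Kasumi-1 and in SKNO-1 at 72 h and to 2 for the line difference at 72 h, and CD22 passed in SKNO-1 at both times (adjusted p = 0.0119 and 0.0346). Replicate differences correlated between groups of a set at 0.133 to 0.45 and 0.043 to 0.481 in Kasumi-1 at 24 h and 72 h and at 0.294 to 0.525 and 0.145 to 0.697 in SKNO-1, and no label says that the numbers pair the cultures. Over all genes the block gave 3733, 2306 and 2715 calls in Kasumi-1 at 24 h and SKNO-1 at 24 h and 72 h against 2479, 1080 and 1316. The 8 libraries alone gave 160 and 400 in SKNO-1 at 24 h and 72 h, 2 groups of 4 gave 3832, 491 and 799, DMSO alone gave 668 at 24 h and the CP libraries 620 at 72 h. Over all genes, the line difference gave 133 and 413 calls at 24 h and 72 h, 521 and 1007 with the block; GSK690* against DMSO gave 0 to 8 over the alternatives, RN-1 against GSK690 0 to 92, and GSK690 against GSK690* 130 to 1505, 391 to 2466, 63 to 636 and 155 to 1065 in the 4 sets against 468, 1159, 194 and 337. Causes of these shifts were not tested. The unknown read depth limits what can be said of PAX5, EBF1 and POU2AF1.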

Other observations

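Across the 16 group means, centred on the mean of each set, the genes whose pattern was most like that of FCRLA were SH2B3 (Pearson's r = 0.978), DUSP4 (0.967) and CYB5B (0.966), over all genes tested. For CD22 they were MALT1 (0.97), ICA1 (0.97) and ZNF217 (0.968), for CD79B LCMT1 (0.95), IFI35 (0.943) and CD99 (0.941), for CD79A ZNF558 (0.926), PARP12 (0.924) and DNAH17 (0.923), and for IGLL1 CDH24 (0.934), AGPAT3 (0.924) and CYB5R3 (0.923). Among the B cell genes themselves r was 0.837 for CD22 with CD79A, -0.863 for CD22 with IGLL1 and 0.234 for CD79B with FCRLA. The group means share libraries and agents, and these values are given as a description.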
